A study of Mus musculus with 9 samples.

Results

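The Id genes, Id1, Id2, Id3 and Id4, encode inhibitors of DNA binding. They were chosen by name, by a rule that used no measured value, though earlier results of these data were known. They are 4 of the 46078 gene identifiers counted in every library. ID proteins have a helix-loop-helix domain but lack the basic region that contacts DNA. They bind E proteins, the broadly expressed basic helix-loop-helix (bHLH) factors, and keep them from forming DNA-binding pairs with tissue-restricted bHLH factors. Id1, Id2 and Id3 are classical target genes of bone morphogenetic protein (BMP) signalling through SMAD factors, and in the testis Id4 is a marker of the most stem-like spermatogonia.

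RNA-seq was performed on EGFP-SSCs, 1 mouse line of spermatogonial stem cells (SSCs) of WT genotype that carries a green fluorescent protein, with 3 libraries labelled as biological replicates at each of 3 times. The 0 h group was in normal culture, on feeder layers of mitomycin C-treated mouse embryonic fibroblasts in medium with 10 ng/ml GDNF, a growth factor that maintains SSCs, besides epidermal and basic fibroblast growth factor. The 24 h and 48 h groups had been mixed 1:1 with somatic cells of busulfan-exposed testes, from mice aged 3 to 7 days postpartum. Their medium held BMP-4 and BMP-7 at 20 ng/ml each, 100 ng/ml activin A, retinoic acid, testosterone, FSH and BPE. Its description names no GDNF and no epidermal or basic fibroblast growth factor. EGFP-positive cells were sorted at the end. Medium, neighbouring cells and time changed together between 0 h and the later groups and cannot be told apart. All libraries came from 1 line, so p-values measure the spread between samples of that line.

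The question put to these data was whether Id4 moved in the same direction as Id1, Id2 and Id3. It moved against Id1 and Id2 over the first 24 h and with all 3 thereafter. In the first 24 h Id1 and Id2 rose, by 3.33 and 20.5 times, Id4 fell by a factor of 5.64, and the libraries of Id3 at both times overlapped. Between 24 h and 48 h all 4 genes rose, by factors from 1.83 for Id4 to 3.29 for Id2. At 48 h Id4 was still below its level at 0 h, by a factor of 3.09, while the other 3 genes were above theirs.

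The genes lie on 4 chromosomes of the build GRCm38, and their positions are given from GENCODE release M21. Id1 lies at chr2:152736251-152737410 on the plus strand, Id2 at chr12:25093799-25097140 on the minus strand, Id3 at chr4:136143497-136145755 on the plus strand and Id4 at chr13:48261228-48266026 on the plus strand. Exons of Id4 share 82 bases, 2.13% of their length, with the antisense transcript A330033J07Rik, which had 0 to 19 counts per library. They share 171 bases, 4.44%, with the long noncoding RNA Gm49291 on the other strand, for which no counts were analysed here. Whether counting used the strand is not given in the sources used here, so reads in these stretches are uncertain. Of windows of 75 bases along the longest transcript, 3.95% of those of Id2 matched the related sequence Gm6175 at 97% identity or more, 0.662% of those of Id4 matched Gm49291, and none of those of Id1 and Id3 matched another gene.

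RefSeq promoter windows for the build GRCm38.p6 were matched for 3 of the 4 genes, Id2, Id3 and Id4. Id1 was not matched. The 250 bases before each RefSeq start were searched on both strands for the letters GGCGCC, the core of a BMP-responsive element known from Id gene promoters, because BMP-4 and BMP-7 were among the factors added. These letters occurred once before Id2, beginning 231 bases before the start, and once before Id4, beginning 148 bases before the start, and not in the window of Id3. They overlapped no other motif searched. Of 32851 promoter windows of the same length, 9.59% held them. The stretches that hold them in Id2, the gene that rose most, and Id4, the gene that fell, are shown from 5′ to 3′ with the 6 letters in capitals:
Id2 (chr12:25096254-25096342, minus strand): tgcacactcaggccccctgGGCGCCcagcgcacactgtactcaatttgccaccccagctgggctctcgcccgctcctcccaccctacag
Id4 (chr13:48260866-48261115, plus strand): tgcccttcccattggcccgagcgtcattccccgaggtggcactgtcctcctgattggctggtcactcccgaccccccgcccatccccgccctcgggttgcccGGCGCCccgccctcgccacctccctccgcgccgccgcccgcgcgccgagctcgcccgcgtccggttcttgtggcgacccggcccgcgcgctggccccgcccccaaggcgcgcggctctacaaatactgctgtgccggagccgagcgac
The Id4 stretch ends at the base before the RefSeq start. The 89 bases of Id2 are those of its window that lie outside annotated exons, and the remaining 161 bases, like all 250 of Id3, lie within exons of GENCODE M21. These 89 bases precede the RefSeq start but lie inside the GENCODE span of Id2 given above, between its annotated exons. The Id4 stretch lies wholly before the GENCODE span of Id4, so the 2 stretches are not alike in position. The window of Id4 consists of G and C for 75.6% of its bases, against 62.8% for Id2 and for Id3. It held 5 copies of the GC box GGGCGG, Id3 held 2 overlapping ones and Id2 held 1, and 32.7% of all windows held at least 1. The CCAAT box CCAAT occurred 3 times before Id2, 2 times before Id4 and not before Id3, against 33.8% of all windows with at least 1. The E-box CAGCTG, to which bHLH factors bind, occurred 1 time before Id2 and in neither other window, against 13% of all windows. The E-box CACCTG, the ETS site CCGGAA and the cAMP response element TGACGTCA were in none of the 3 windows, and were in 17.2%, 12% and 1.55% of all windows. A match describes the letters only.

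The libraries held 16825251 to 22201892 counts. Chi-square per degree of freedom between replicates, 1 where only sampling noise separates a pair, was 35.5 to 81.4 at 0 h and 7.12 to 26.0 among the later pairs, so the 0 h libraries varied most and no library repeated another. Levels are given as CPM (counts scaled to a common library size) after TMM normalization, and differences as log2 fold changes ± 1 standard error (SE). Tests are two-sided quasi-likelihood tests of edgeR, Benjamini-Hochberg adjusted over all genes tested, at a threshold of 0.05. Of 17592 genes tested, 11.4% were higher and 14.2% lower at 24 h than at 0 h. Of 17755 genes, 13% were higher and 18.5% lower at 48 h than at 0 h, and of 17499 genes, 8.61% were higher and 12.7% lower at 48 h than at 24 h. Of the genes called, 44.55% were higher at 24 h and 41.24% at 48 h than at 0 h. With library size alone as scaling these shares were 57.1% and 52.82%, and the median log2 fold change of all genes moved by 0.113 and 0.11. Both comparisons with 0 h share the 3 libraries of 0 h.

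**Figure D1:**
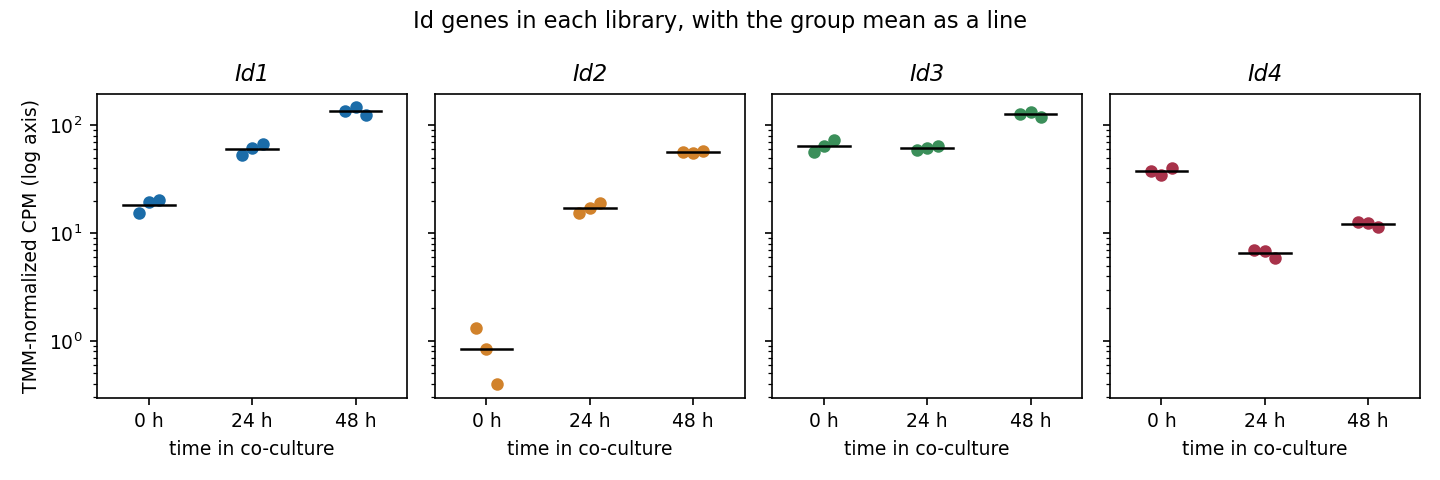
TMM-normalized CPM (log axis) of Id1, Id2, Id3 and Id4 in each of the 9 libraries by time in co-culture, with 1 point per library and the mean of 3 as a line. Id1 and Id2 were higher at each later time without overlap, Id3 overlapped between 0 h and 24 h and was higher at 48 h, and Id4 was highest at 0 h and lowest at 24 h.

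Id4 had 38.0, 34.2 and 40.1 CPM in the 3 libraries of 0 h, from 610, 690 and 805 counts. It had 7.03, 6.79 and 5.91 CPM at 24 h and 12.7, 12.4 and 11.3 CPM at 48 h. The 3 groups did not overlap, and every library of 48 h lay between those of 24 h and those of 0 h. The mean was 37.5 ± 2.98 CPM (SD, n = 3) at 0 h, then 6.58 ± 0.588 at 24 h and 12.1 ± 0.738 at 48 h. By the edgeR quasi-likelihood test, adjusted after Benjamini and Hochberg, Id4 was lower at 24 h than at 0 h (log2 fold change -2.50 ± 0.14, adjusted p = 3.751e-05). It was also lower at 48 h than at 0 h (log2 fold change -1.63 ± 0.12, adjusted p = 9.659e-05). From 24 h to 48 h it rose (log2 fold change 0.87 ± 0.13, adjusted p = 0.001901), to a level below that of 0 h. Ordered from the most negative log2 fold change at 24 h, Id4 was number 311 of the 17592 genes tested. In a library of bulk RNA, fewer cells of a type and less RNA per cell cannot be told apart.

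Id1 had 15.2, 19.6 and 20.2 CPM at 0 h. It had 53.2, 62.2 and 66.8 CPM at 24 h and 136, 147 and 126 CPM at 48 h. Every library of a later time lay above every library of an earlier one. Id1 rose from 0 h to 24 h (log2 fold change 1.74 ± 0.15, adjusted p = 0.0002343 by the edgeR quasi-likelihood test, adjusted after Benjamini and Hochberg). It rose again from 24 h to 48 h (log2 fold change 1.15 ± 0.09, adjusted p = 0.0001748), and at 48 h it was 7.41 times its level at 0 h (log2 fold change 2.89 ± 0.15, adjusted p = 2.103e-05).

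Id2 was low in normal culture, with 21, 17 and 8 counts at 0 h, or 1.31, 0.844 and 0.399 CPM. It had 15.3, 17.0 and 18.9 CPM at 24 h and 56.2, 55.8 and 57.6 CPM at 48 h. The libraries of the 3 times did not overlap, and those of 48 h differed by 1.65% of their mean (SD). At 0 h the SD was 53.5% of the mean, the largest relative spread of the 4 genes. Id2 rose 20.5 times by 24 h (log2 fold change 4.36 ± 0.36, adjusted p = 0.0001796 by the edgeR quasi-likelihood test, adjusted after Benjamini and Hochberg), number 50 of the 17592 genes tested when ordered from the largest fitted rise. It was 67.6 times its 0 h level at 48 h (log2 fold change 6.08 ± 0.32, adjusted p = 2.284e-05), number 29 of 17755 in the same order. From 24 h to 48 h the rise was 3.29 times (log2 fold change 1.72 ± 0.09, adjusted p = 1.951e-05).

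Id3 had 56.3, 64.2 and 73.6 CPM at 0 h and 58.7, 62.2 and 63.9 CPM at 24 h. The libraries of 24 h lay within the range of those of 0 h. The log2 fold change was -0.06 ± 0.13 (95% interval -0.303 to 0.187, adjusted p = 0.7898 by the edgeR quasi-likelihood test, adjusted after Benjamini and Hochberg), and its sign turned with library size alone as scaling and without the third library of 0 h. At 48 h Id3 had 127, 134 and 121 CPM, above every earlier library. It was higher at 48 h than at 0 h (log2 fold change 0.97 ± 0.13, adjusted p = 0.001246) and than at 24 h (log2 fold change 1.03 ± 0.07, adjusted p = 7.18e-05).

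The members' counts by comparison can be set beside those of all genes. Of the 4 Id genes, 2 rose and 1 fell by 24 h, against 11.4% of all genes called higher and 14.2% called lower, and 3 of 4 had libraries of the groups that did not overlap, as did 43.4% of all genes tested. At 48 h against 0 h, 3 were higher and 1 was lower, against 13% and 18.5% of all genes, and 4 of 4 did not overlap, against 48.3% of all genes. At 48 h against 24 h, 4 of 4 rose and none overlapped, against 39.6% of all genes without overlap and 8.61% called higher.

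**Figure D2:**
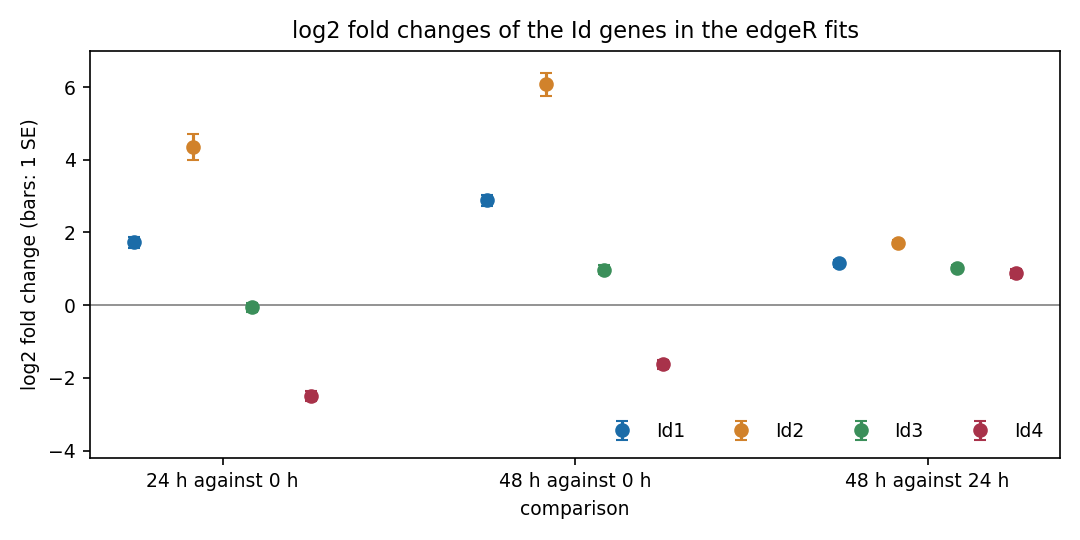
log2 fold changes of the 4 Id genes in the 3 comparisons, as points with bars of 1 SE from the edgeR fits over 6 libraries each. Id4 lies below 0 in both comparisons with 0 h, at -2.50 and -1.63, and above 0 with the other 3 genes at 48 h against 24 h.

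To compare the genes within a library, where no scaling between libraries enters, the log2 ratio of Id4 counts to those of each other Id gene was taken, with 2 added to each count. The ratio of Id4 to Id1 was 1.31, 0.80 and 0.98 at 0 h, then from -3.48 to -2.90 at 24 h and from -3.55 to -3.41 at 48 h. The counts are not corrected for gene length, so the change between times is what can be read from these values, and the 6 later libraries all lay below those of 0 h. The ratio of Id4 to Id2 fell from between 4.73 and 6.33 at 0 h to between -1.66 and -1.11 at 24 h, and to between -2.34 and -2.14 at 48 h. That of Id4 to Id3 was negative at every time, from -0.90 to -0.56 at 0 h, then from -3.41 to -3.05 at 24 h and from -3.42 to -3.31 at 48 h.

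Each of these 3 ratios changed over time by an exact permutation test of the F statistic over all 1680 assignments of the 9 libraries to 3 groups. For Id4 to Id2 the exact permutation p was 0.003571, the smallest the design can give, and for Id4 to Id1 and Id4 to Id3 the exact permutation p was 0.01071. The 3 tests share Id4 and are not adjusted for one another. Pairs of times are given without a test, since the exact permutation test used here cannot give a p below 0.1 for 3 against 3 libraries. From 0 h to 24 h the log2 ratio changed by -4.22 ± 0.22 (SE) for Id4 to Id1, by -6.78 ± 0.50 for Id4 to Id2 and by -2.43 ± 0.15 for Id4 to Id3, and the groups did not overlap. From 24 h to 48 h the differences were -0.29 ± 0.17 for Id1 and -0.17 ± 0.11 for Id3, with overlapping groups. For Id2 the difference was -0.85 ± 0.17, without overlap. From 24 h to 48 h Id4 thus gained less than Id2 in these libraries, and its gain was not separated from those of Id1 and Id3.

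**Figure D3:**
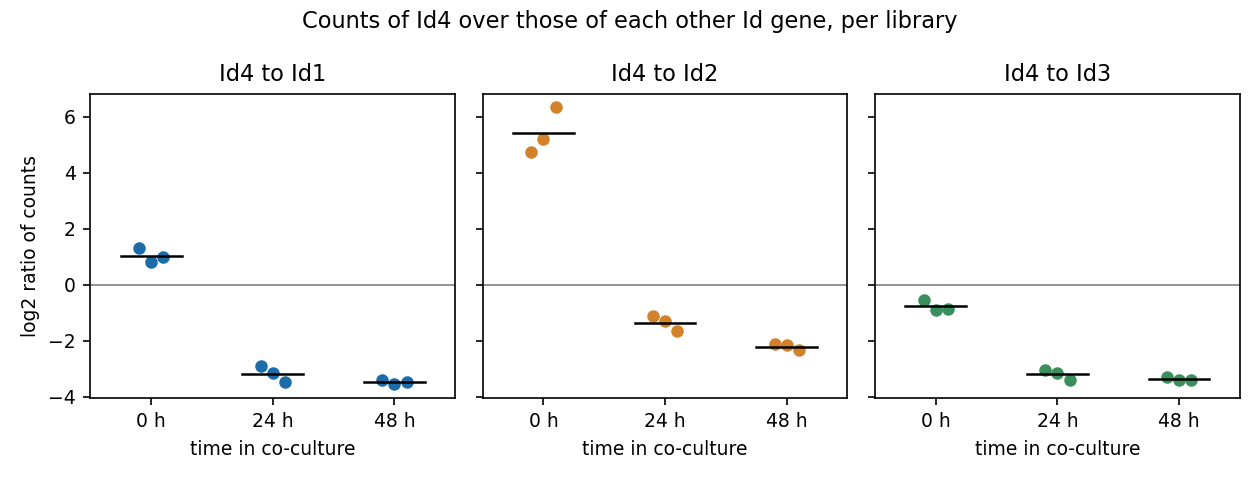
log2 ratio of the counts of Id4 to those of Id1, Id2 and Id3 in each of the 9 libraries, with 1 point per library and the mean of 3 as a line. All 3 ratios were lower in the 6 libraries of 24 h and 48 h than in those of 0 h, and only that to Id2 separated 48 h from 24 h.

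For levels between genes, FPKM (reads per kilobase of merged exons, scaled for depth) were computed. At 0 h the order was Id3 with 36.1 ± 4.83 FPKM (SD, n = 3), Id1 with 15.8 ± 2.36, Id4 with 9.74 ± 0.773 and Id2 with 0.349 ± 0.187. At 24 h Id1 led with 52.4 ± 5.96 FPKM, before Id3 with 34.4 ± 1.48, Id2 with 7.00 ± 0.745 and Id4 with 1.71 ± 0.153. At 48 h the order was the same as at 24 h, with 117 ± 9.03 FPKM for Id1, 71.0 ± 3.74 for Id3, 23.2 ± 0.384 for Id2 and 3.15 ± 0.192 for Id4. No neighbours in these orders overlapped in any library of their group. The order of the 4 genes was the same with the longest transcript as length.

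The makeup of the family changed with time. Id3 made up 58.1% of the summed FPKM of the 4 genes at 0 h, Id1 25.4%, Id4 15.8% and Id2 0.591%. At 24 h Id1 made up 54.8%, Id3 36.1%, Id2 7.32% and Id4 1.81%. At 48 h the shares were 54.6% for Id1, 33.1% for Id3, 10.8% for Id2 and 1.47% for Id4. The sum itself was 62.0 ± 7.07 FPKM (SD, n = 3) at 0 h, then 95.5 ± 8.03 at 24 h and 215 ± 12.6 at 48 h, 3.46 times the level at 0 h. Id4 fell while the sum of the family rose, and Id1 and Id3 together held most of the sum at each time.

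**Figure D4:**
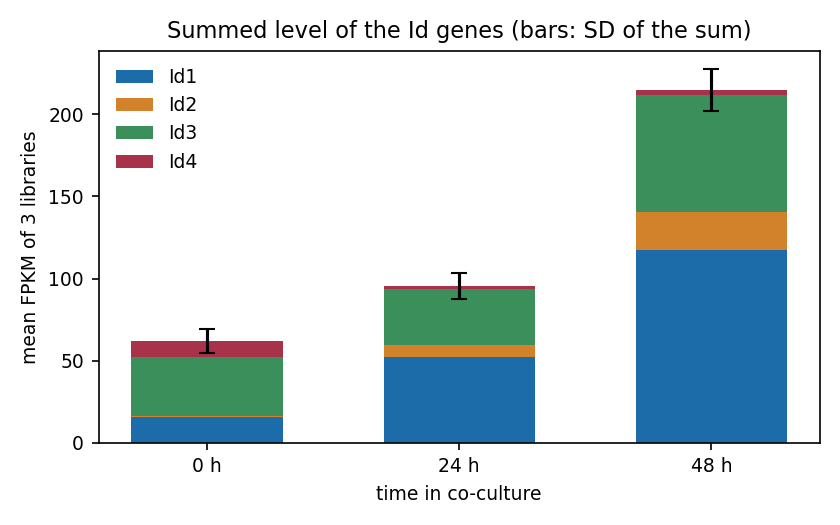
Mean FPKM of the 4 Id genes, stacked, at 0 h, 24 h and 48 h (3 libraries each), with bars for the SD of the sum over libraries. The sum was 62.0, 95.5 and 215 FPKM, and the share of Id4 went from 15.8% to 1.81% and 1.47%.

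The E proteins that ID proteins bind are encoded by Tcf3 (E2A), Tcf4 and Tcf12 (HEB). None of the 3 passed the test at 24 h or 48 h against 0 h, with log2 fold changes from -0.32 to 0.16 and from -0.21 to -0.05. The median of the list was -0.31 and -0.14, against 0.01 and 0.02 for all genes tested. Of those, 11.4% were higher and 14.2% lower at 24 h, and 13% and 18.5% at 48 h. From 24 h to 48 h Tcf3 fell (log2 fold change -0.30 ± 0.08, adjusted p = 0.0225 by the edgeR quasi-likelihood test, adjusted after Benjamini and Hochberg), and the other 2 did not pass. Over this step the median of the list was 0.098, against -0.0045 for all genes, of which 8.61% were higher and 12.7% lower. Tcf3 led the E proteins by level at every time, with 120 ± 18.3 FPKM (SD, n = 3) at 0 h, then 133 ± 4.96 at 24 h and 109 ± 10.1 at 48 h. The summed FPKM of the Id genes was 0.470 ± 0.010 of that of the E proteins at 0 h, then 0.671 ± 0.079 at 24 h and 1.80 ± 0.040 at 48 h. The 3 groups of this RNA ratio did not overlap. Its size rests on merged exons as length, and the longest transcript was not tried as length for the E proteins.

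Of 20 other bHLH factors, which include both tissue-restricted factors and more broadly expressed repressors of the Hes, Hey and Bhlhe families, 16 passed the filter on low counts at 24 h, of which 5 rose and 4 fell by 24 h against 0 h. The median log2 fold change was 0.18, against 0.01 for all genes, of which 11.4% were called higher and 14.2% lower. Sohlh1, a factor of differentiating spermatogonia, rose from 55.7 ± 9.17 to 236 ± 21.7 CPM (SD, n = 3) by 24 h (log2 fold change 2.10 ± 0.15) and was at 217 ± 18.1 CPM at 48 h. Ascl2, an achaete-scute factor, rose from 12.3 to 35.9 CPM by 24 h (log2 fold change 1.56 ± 0.12). Tcf21, a factor of mesenchymal cells, had no count at 0 h and 2.23 ± 0.552 CPM at 24 h, at least 13.8-fold higher when 3 counts per library are taken as the limit at 0 h. The genes that fell were Twist1 and the repressors Hes1, Bhlhe40 and Bhlhe41. Bhlhe40 and Bhlhe41 fell most, with log2 fold changes of -2.27 ± 0.14 and -2.59 ± 0.14 at 24 h. At 48 h against 0 h, 4 of 15 rose and 5 fell, with a median of 0.22. For all genes 13% were higher and 18.5% lower, with a median of 0.02. At 48 h against 24 h none of 16 rose and 6 fell, with a median of -0.15. For all genes these values were 8.61%, 12.7% and -0.0045.

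On the path from BMP ligands to their targets, all 10 receptors and SMADs passed the filter, and 3 rose and none fell by 24 h. The median log2 fold change was 0.13, against 0.01 for all genes, of which 11.4% were called higher and 14.2% lower. The 3 that rose were Acvr2b, a type II receptor, Smad1, and Smad9, which had the largest change of the list. Smad9 had 2.23 ± 0.610 CPM at 0 h, then 4.26 ± 0.714 at 24 h and 10.7 ± 0.649 at 48 h (SD, n = 3). Its log2 fold change was 0.94 ± 0.27 at 24 h (adjusted p = 0.0407) and 2.26 ± 0.23 at 48 h against 0 h (adjusted p = 0.000421), both by the edgeR quasi-likelihood test, adjusted after Benjamini and Hochberg. Smad5, of the same class as Smad1 and Smad9, was at a log2 fold change of -0.50 ± 0.16 at 24 h, which did not pass. At 48 h against 0 h it fell by 0.75 ± 0.16 on the log2 scale. At 48 h against 0 h, 4 of 10 rose and 1 fell, with a median of 0.33. For all genes 13% were higher and 18.5% lower, with a median of 0.02. Against 24 h 3 rose and 1 fell, with a median of 0.24. For all genes these values were 8.61%, 12.7% and -0.0045.

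Other genes known to respond to BMP did not move as 1 group. Of 11, 10 passed the filter at 24 h, where 2 rose and 3 fell and the median log2 fold change was -0.18. For all genes 11.4% were higher and 14.2% lower, with a median of 0.01. Atoh8, a bHLH factor, rose from 8.75 ± 2.43 to 25.8 ± 1.50 CPM (SD, n = 3) with a log2 fold change of 1.57 ± 0.20, and Gata2 rose by 0.64 ± 0.17. The homeobox genes Msx1 and Msx2 fell, with log2 fold changes of -1.32 ± 0.26 and -2.61 ± 0.21, as did the inhibitory Smad7 with -0.62 ± 0.18. At 48 h against 0 h, 3 of 11 rose and 1 fell, with a median of 0.29. For all genes 13% were higher and 18.5% lower, with a median of 0.02. The BMP antagonist Grem1 had the largest of the 3 rises, from 2.65 ± 1.32 to 15.5 ± 4.61 CPM. From 24 h to 48 h Smad7, Msx1 and Grem1 rose, none fell, and the median was 0.31. For all genes 8.61% were higher and 12.7% lower over this step, with a median of -0.0045. Msx2 had 15.2 CPM at 0 h, then 2.46 at 24 h and 3.71 at 48 h, and its log2 fold change of 0.58 ± 0.20 from 24 h to 48 h did not pass.

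Genes of stem spermatogonia and of the response to GDNF fell with Id4 in the first 24 h. Of 15 genes, all of which passed the filter, 13 fell by 24 h and none rose, against 14.2% and 11.4% of all genes. The median log2 fold change was -2.72, against 0.01 for all genes. The paper on these libraries had already reported falls of Etv5, Lhx1, Bcl6b, Nanos2, Gfra1 and Zbtb16. The list was written with earlier results known, so its counts are a description and no independent test. Gfra1, the GDNF co-receptor, fell from 230 ± 10.6 to 36.4 ± 2.21 CPM (SD, n = 3), and Ret, the receptor kinase, from 644 ± 65.6 to 47.1 ± 0.852 CPM. Etv5 and Lhx1, transcription factors raised by GDNF, fell by 5.52 ± 0.14 and 5.42 ± 0.14 on the log2 scale. Shisa6 and Zbtb16, the latter encoding PLZF, did not pass at 24 h, at -0.14 ± 0.24 and -0.16 ± 0.15. Zbtb16 fell later. At 48 h it was lower than at 0 h (log2 fold change -0.57 ± 0.15) and than at 24 h (-0.41 ± 0.07). Shisa6 did not pass at 48 h against 0 h either, at -0.56 ± 0.23.

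Between 24 h and 48 h, when Id4 rose, 1 of the 14 genes of this list that passed the filter rose and 5 fell. The median was -0.42. For all genes 8.61% were higher and 12.7% lower, with a median of -0.0045. The gene that rose was Pax7, a marker of a rare spermatogonial subset, from 9.54 ± 0.530 to 13.1 ± 1.26 CPM (SD, n = 3). Gfra1 fell further, to 18.0 ± 1.58 CPM, with a log2 fold change of -1.02 ± 0.09 (adjusted p = 0.000187 by the edgeR quasi-likelihood test, adjusted after Benjamini and Hochberg). Etv5 also fell further, from 11.3 ± 1.01 to 7.78 ± 0.452 CPM. At 48 h against 0 h, 13 of 15 were lower and none higher, with a median of -3.45. For all genes 13% were higher and 18.5% lower, with a median of 0.02. These 13 were not all the same genes as at 24 h. Zbtb16 was among them, while Pax7, lower at 24 h, did not pass at 48 h (log2 fold change -0.07 ± 0.16).

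**Figure D5:**
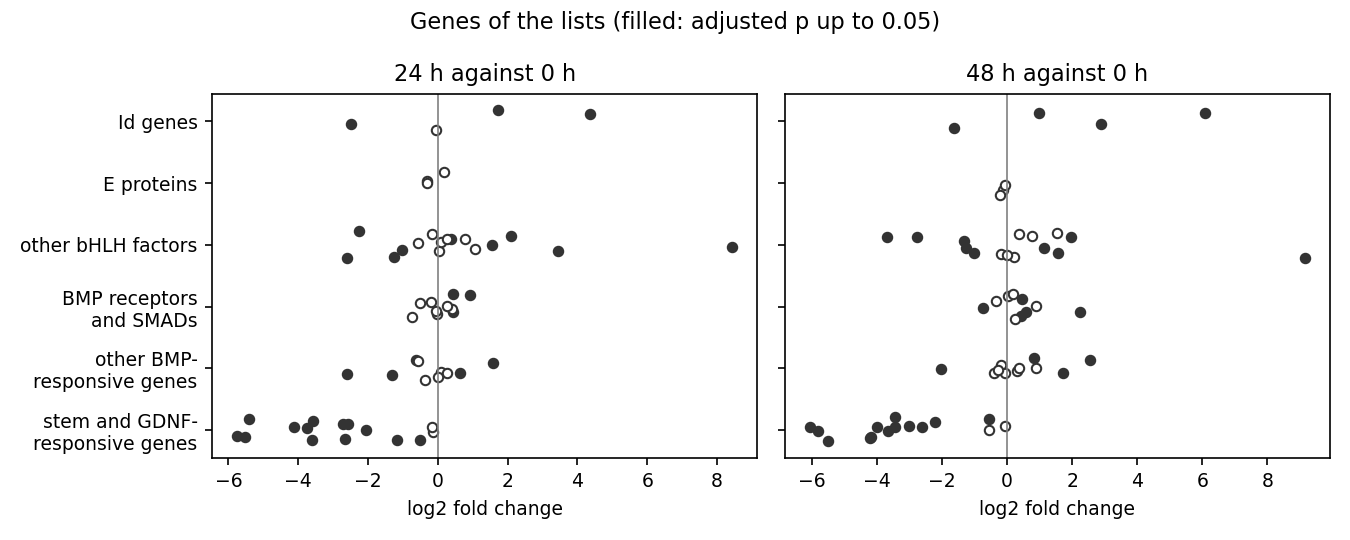
log2 fold changes at 24 h and 48 h against 0 h of the Id genes and of 5 lists of related genes, 1 point per gene that passed the filter on low counts, filled where the adjusted p is up to 0.05. The stem and GDNF-responsive genes lie left of 0 with Id4, and the point farthest right is the fitted value of Tcf21, which had no count at 0 h.

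The identity of the sequenced cells was checked with marker lists. At 24 h against 0 h, 11.4% of all genes were higher and 14.2% lower. At 48 h these shares were 13% and 18.5% against 0 h, and 8.61% and 12.7% against 24 h. The labels do not say whether the 0 h cells were sorted off their fibroblast feeders. The paper states that SSCs of different culture stages were flow-sorted for sequencing, without naming 0 h. Its figure caption on sorting names differentiated cells. SSC and feeder RNA therefore cannot be told apart with certainty in the 0 h values of the somatic lists. The 7 general germ cell markers, among them Ddx4 and Dazl, summed to 1684 to 2707 CPM at 0 h, then 1991 to 2228 at 24 h and 2025 to 2256 at 48 h, with overlapping groups. Dazl was the largest part of this sum and varied most at 0 h, with 868 ± 466 CPM (SD, n = 3). Sall4 was higher at 24 h and Dnd1 lower at 48 h than at 0 h, and both fell from 24 h to 48 h. Fibroblast and stromal and peritubular myoid markers rose in sum at both steps, as Id1 and Id2 did. The 7 fibroblast and stromal markers summed to 264 to 361 CPM at 0 h, then 2101 to 2429 at 24 h and 2814 to 3109 at 48 h. The collagens Col1a1, Col1a2 and Col3a1 held most of this sum, with means of 1112, 697 and 355 CPM at 24 h. They and Pdgfra, 4 of 7, rose by 24 h, while Dcn, Lum and Dpt did not pass. Of the 7, 5 rose and 1, Pdgfra, fell over the next day. The 5 peritubular myoid markers summed to 9.48 to 11.4, 143 to 204 and 259 to 317 CPM, and 5 of 5 rose by 24 h and again by 48 h. The 7 Sertoli markers summed to 18.0 to 19.3, 35.4 to 49.8 and 45.4 to 47.8 CPM, with 5 rising and 2 falling by 24 h, and then 1 rising and 1 falling. The 6 Leydig markers summed to 4.49 to 6.80, 24.6 to 38.6 and 25.25 to 32.6 CPM, with 2 of the 3 that passed the filter higher at 24 h and none called between 24 h and 48 h.

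The endothelial and macrophage lists were lower in sum at the later times, with members called in both directions. The 5 endothelial markers summed to 43.3 to 47.3 CPM at 0 h, then 14.5 to 18.9 at 24 h and 12.3 to 12.8 at 48 h, with 1 higher and 2 lower at 24 h than at 0 h among the 4 that passed the filter. The 5 macrophage markers summed to 16.2 to 18.0, 6.74 to 11.8 and 7.65 to 8.41 CPM, and Cd68 held most of the sum at 0 h. Of the 3 macrophage markers that passed the filter at 24 h, Csf1r and Cd14 were higher than at 0 h and Cd68 was lower. Hsd3b1 and Insl3 of Leydig cells and Emcn of endothelium had no count in any library of 0 h, and no marker of any list was at 0 in all 9 libraries. The part of somatic RNA in the changes of the Id genes was not tested.

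As a description, the genes whose log2 CPM over the 9 libraries was most like that of each Id gene were taken among 10363 genes with a mean of at least 10 CPM. The 9 libraries fall into the 3 time groups, which all these patterns share. For Id4 these were Txnip (r = 0.992), Pla2g7 (0.989) and Sfrp2 (0.988). Sfrp2, a secreted Wnt modulator, had 79.9 ± 6.82 CPM at 0 h, then 23.5 ± 1.25 at 24 h and 40.1 ± 1.25 at 48 h (SD, n = 3), with its lowest level at 24 h as in Id4. Pla2g7, a phospholipase, had 45.2 ± 5.38, 6.37 ± 0.376 and 11.6 ± 1.23 CPM, and Txnip, a thioredoxin-binding protein, had 258 ± 5.84, 133 ± 6.96 and 168 ± 4.60 CPM.

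For Id1 the genes most alike were Gstm2 (r = 0.992), Ube2r2 (0.990) and Qrsl1 (0.990). Gstm2, a glutathione transferase of a family of similar genes, had 0.531 ± 0.255, 12.9 ± 3.99 and 51.3 ± 4.14 CPM (SD, n = 3). For Id2 they included Cyp1b1 (r = 0.998) and Myh11 (0.996). Myh11, smooth muscle myosin and a member of the peritubular myoid list, had 2.96 ± 0.509, 11.8 ± 1.93 and 20.7 ± 1.48 CPM, and Cyp1b1, a cytochrome P450 enzyme, had 1.09 ± 0.349, 9.90 ± 0.639 and 21.9 ± 2.96 CPM. For Id3 they were Smg6 (r = 0.969), Mad1l1 (0.963) and Dlk1 (0.962). Dlk1, an imprinted transmembrane protein, had 49.1 ± 9.10, 57.8 ± 2.59 and 124 ± 6.20 CPM, with its rise after 24 h as in Id3.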

How the data were processed

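RNA-seq libraries of EGFP-SSCs (3 at each of 0 h, 24 h and 48 h) were used. Per the labels, EGFP-positive cells were sorted at 24 h and 48 h, and no sort is named for 0 h. The paper states a flow sort of SSCs of different culture stages, without naming 0 h. The authors deposited counts, whole reads per Ensembl gene identifier and library, without normalization. The submitters' processing notes name fastp, HISAT2, featureCounts and GRCm38, and the annotation release and the use of strand are not given in the sources used here. Of 46078 identifiers, GENCODE M21 held 45229, and the other 849 took at most 0.121% of any library.

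Counts were filtered with filterByExpr, scaled by TMM and tested with edgeR 4.0.16 in R 4.3.3, separately for each comparison (6 libraries each, quasi-likelihood), with Benjamini-Hochberg adjustment over all genes tested. SEs come from the same fits, and 95% intervals from normal quantiles. FPKM used the TMM-scaled library size, and the log2 ratios a prior count of 2. Depth limits Id2 at 0 h most. Genes with up to 3 counts in each library of a group were given as bounds. Matches between transcripts were found with BLAST 2.17.0. Figures were drawn with matplotlib 3.10.9. The scripts were tested on simulated data.

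The Id genes and the lists were chosen, and written from general knowledge, with earlier results of these data known. Named genes are the 4 Id genes, genes of the lists, and for each Id gene the 3 with the highest Pearson r of log2 CPM among genes with a mean of at least 10 CPM. 1 gene that this rule names is not reported here. Markers served as a check. Alternatives were DESeq2 1.42.0, its size factors, library size alone, the replicate number as a block, a minimum of 10 counts per library, no filter, a joint fit of all 9 libraries, offsets for GC content and length (splines with 5 and 4 degrees of freedom), prior counts of 0.5 and 5 for the ratios, the longest transcript as length and leaving out each library.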

Additional observations from a re-analysis of the deposited data

How the results depend on the processing

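Of the 166 alternative values for the 12 fold changes of the Id genes, 164 kept the sign and the side of the threshold. The other 2 concern Id3 at 24 h against 0 h, which passed in none. Its log2 fold change was 0.06 (0.0557) with library size alone, and ran from -0.145 to 0.072 when 1 library was left out, with the positive end without the third library of 0 h. With at least 10 counts in every library, Id2 could not be fitted against 0 h. For the called fold changes, the highest adjusted p over all alternatives was 0.0127, for Id4 at 48 h against 24 h with 1 library left out. All 33 alternatives for the ratios of Id4, over prior counts and left-out libraries, kept an exact permutation p under 0.05, from 0.003571 to 0.02143. With the longest transcript as length, 5 of 12 mean FPKM values, those of Id3 and of Id2 at 24 h and 48 h, moved by more than their SD.

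Counts of genes called over the whole table were less stable. With all 9 libraries in 1 fit, 1043 genes in place of 3732 were called at 48 h against 24 h, and the cause was not tested. Leaving out 1 library gave 2607 to 6023 genes at 24 h against 0 h (4494 with all), 3471 to 7116 at 48 h against 0 h (5602) and 1857 to 4356 at 48 h against 24 h (3732). In the 60 recounts of the lists with DESeq2 or library size alone, 3 moved by over 1.5 times, all in the count of BMP receptors and SMADs called lower: by DESeq2 2 in place of 0 at 24 h against 0 h, and 0 in place of 1 at 48 h against 24 h by both.

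Replicate numbers are shared between groups, but of the 9 same-numbered pairs of libraries only 1 had a correlation of deviations over 0.1 (range -0.28 to 0.196), and 3 of 9 libraries correlated best with their own number. With the replicate number as a block, 3007, 4013 and 2497 genes were called in place of 4494, 5602 and 3732. The block changed no call of an Id gene. The libraries hold 1 line only, the groups 3 libraries each, and Id2 at 0 h rests on 8 to 21 counts.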
